A study of Gallus gallus with 77 samples.

Results

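The ETS, SRF and MEF2 factors were followed as a set of 29 gene names among the 1507 on a transcription factor array. The members were taken by symbol alone, without using any measured value. Symbols of the ETS, ETV, ELK, ELF, ERG, FLI1, SPI, GABP, EHF and ERF genes, SRF and the MEF2 genes were kept, and names that mark mismatch control oligonucleotides were left out. Of the 29 members, 23 encode proteins with an ETS domain, 4 are MEF2 genes, 1 is *SRF* and 1 is *GABPB1*, which encodes the partner subunit of *GABPA* and has no ETS domain itself. All 29 passed the filter on low signal, as did 1503 of the 1507 gene names. *PDEF*, an older symbol of *SPDEF*, was on the array under that spelling and was not matched by symbol. A chicken RefSeq gene of the same symbol was found for 24 members and not for the other 5, *ELF4*, *ELK1*, *ERF*, *ETV2* and *SPIB*.

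ETS proteins share a winged helix domain that binds DNA around a GGA core, and many of them are phosphorylated by MAP kinases downstream of growth factor receptors. *SRF* and the MEF2 proteins share another DNA binding domain, the MADS box. *SRF* binds the serum response element of immediate early genes such as *FOS* and *EGR1*, either with the ternary complex factors *ELK1*, *ELK3* and *ELK4*, which are ETS proteins, or with the actin-regulated myocardin-related coactivators. MEF2 proteins switch between activation and repression with calcium signals through class II histone deacetylases, and were first described in muscle. In the inner ear the PEA3 group of ETS genes, *ETV1*, *ETV4* and *ETV5*, is known as a target of FGF signalling.

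The RNA came from sensory epithelia (SE) of the cochleae of White Leghorn chicks, 10 to 21 days after hatching, cut into pieces and cultured for 7 to 10 days. Pieces wounded with a laser microbeam were compared with unlesioned pieces kept for the same time after recovery times of 30 min, 1, 2 and 3 hrs. Neither group received a transgene or drug. Both were isolated with thermolysin and grown on fibronectin in medium with fetal bovine serum. There were 2 biological replicates per time point, each made of 4 specimens per condition, and polyA RNA was amplified in 2 rounds. Laser and control RNA of a replicate were hybridised together, in Cy3 and Cy5 in either order, to human 50-mer probes spotted in duplicate. The laser wounds cover part of each piece, so the RNA mixes wounded and unwounded cells. In such bulk samples fewer cells of a type and less RNA per cell cannot be told apart.

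Of the 77 arrays, 25 belong to 30 min, 17 to 1 hr, 15 to 2 hrs and 20 to 3 hrs, and Cy3 carried the laser RNA on 38 and Cy5 on 39 of them. The median signal of an array ran from 772 to 3914 and was highest at 1 hr, with a median over arrays of 2855 against 1191 at 30 min, 1943 at 2 hrs and 1369 at 3 hrs. A digit in the sample titles gives the dye that carried the laser RNA, and it matched the recorded image names of all 77 arrays. The log2 ratios that the authors deposited are turned in the same way on all 77 arrays. With the ratios turned to laser over control by that digit, arrays of the 2 dye orientations still opposed each other, as described below. Beyond the labels and the deposited ratios, the direction of small ratios is thus not settled. On 2 of the 25 arrays at 30 min, both from replicate 1 with the laser RNA in Cy5, 73 and 58 genes were over 4-fold, against 25 on the array with the next most and a median of 2 on the others. The *ETV5* result and the counts past the threshold or differing between time points are given with and without them. Other values that include these arrays are given only with them. The file headers gave 11 different days, and only days 3 and 5 held arrays of more than 1 time point, 1 hr and 2 hrs, so that for 30 min and 3 hrs day and time point cannot be told apart.

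Few members gave a signal well above the control spots. Each array carried 11 control oligonucleotides without a mismatch suffix, and a member was set against the highest and the median of them on the same array. The signal of *ETV1* was above the highest control on 73 of 77 arrays. That of *MEF2B* was above it on 65 and that of *ELF3* on 64. These 3 were the members above it on at least 80% of arrays, a criterion met by 80 of the 1503 genes tested (5.32%). *ETV5* followed with 52 arrays, *EHF* with 28 and *MEF2A* with 20. The other 23 members were above it on fewer than 20% of arrays, and *ERG* and *ETS1* were so on none. Against the median control, 9 members (31%) and 552 of the 1503 genes (36.7%) were higher on at least 80% of arrays. The probes for these genes are human and the tissue is chicken, so a low signal does not show that a transcript is absent.

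**Figure D1:**
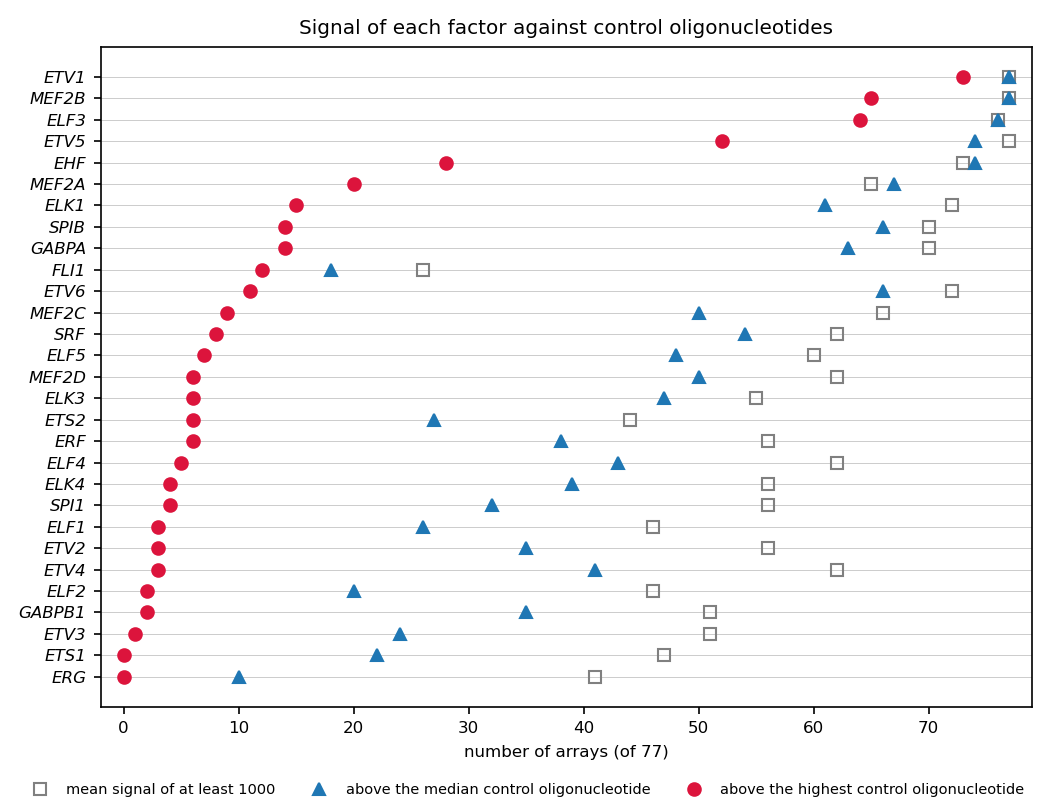
Number of arrays, of 77, on which the signal of each of the 29 factors was above the highest control spot, the median control spot or 1000 units of intensity. *ETV1*, *MEF2B* and *ELF3* were above the highest control spot on 73, 65 and 64 arrays, and 23 members were so on fewer than 20% of arrays.

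A second criterion was a signal of 1000 units on 80% or more of a time point's arrays, which 10, 28, 23 and 17 members met over the time points in order. The share of members, 34.5, 96.6, 79.3 and 58.6%, moved with that of all genes tested, 30.3, 91.7, 85 and 55.2%, and in the order of the median array signals. The 9 members detectable at all 4 time points were *EHF*, *ELF3*, *ELK1*, *ETV1*, *ETV5*, *ETV6*, *GABPA*, *MEF2B* and *SPIB*. That is 31% of the members, against 28.1% of all genes tested (423 of 1503). *FLI1*, a factor of endothelial and megakaryocytic lineages, was detectable at none, and its array medians lay between 541 and 953 units.

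Between laser wounded and control SE, 2 of the 29 members passed the fold and p-value part of the study's threshold at 1 time point or more. That part is a change over 1.2-fold with an unadjusted p under 0.05. The 2 members were *ETV5* at 30 min and *ELF5* at 2 hrs, both lower in the laser SE. Of the 1503 genes tested, 38 (2.53%) were past this threshold and lower at 30 min, and 31 (2.06%) at 2 hrs. The same threshold was passed by 125 of 1503 genes (8.32%). Over the time points in order, it was passed by 52 genes (3.46%), 5 (0.333%), 63 (4.19%) and 23 (1.53%), and by 1, 0, 1 and 0 members. No gene of the array passed an adjusted p of 0.05 in limma (0 of 1503 at each time point), and the lowest adjusted p of a member was 0.209. At an unadjusted p under 0.05 without a fold threshold there were 134, 40, 164 and 57 genes (8.92, 2.66, 10.9 and 3.79%) and 1, 0, 1 and 2 members. The one-sample test over arrays that the methods describe gave 2 genes and 0 members past an adjusted p of 0.05.

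The other ratios were small. Of 116 member values, 29 genes at 4 time points, 114 were under 1.2-fold. The median log2 ratio of the members ran from −0.02 at 2 hrs to 0.00 at 30 min. That of all genes ran from −0.01 at 2 hrs to −0.0003 at 3 hrs, and 16, 14, 13 and 13 of the 29 members were above 0. The median standard error of a member ratio was 0.085, and 115 of the 116 intervals at 95% lay within 1.5-fold in either direction while 58 lay within 1.2-fold. These intervals rest on limma's SD, which is drawn towards that of all genes. It took the SD between replicates from 0.40 to 0.24 for *ETV1* and from 0.30 to 0.20 for *GABPB1*. For *MEF2C* it rose from 0.06 to 0.11. Intervals from each gene's own SD were not computed. With no array turned by its dye the values are of Cy5 over Cy3, in which a laser effect cancels between the orientations. There 109 of the 116 intervals lay within 1.5-fold and 31 within 1.2-fold, and 4 values were beyond 1.5-fold. The intervals of laser over control bound the array ratio and not the change in transcript. The paper proposes that cross-species hybridisation may narrow the range of its changes, and its qPCR changes were in general larger. The labels call the 2 samples of a time point biological replicates without saying how they were separated. The p-values thus measure the spread between such samples, pooled over time points and drawn by limma towards that of all genes.

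**Figure D2:**
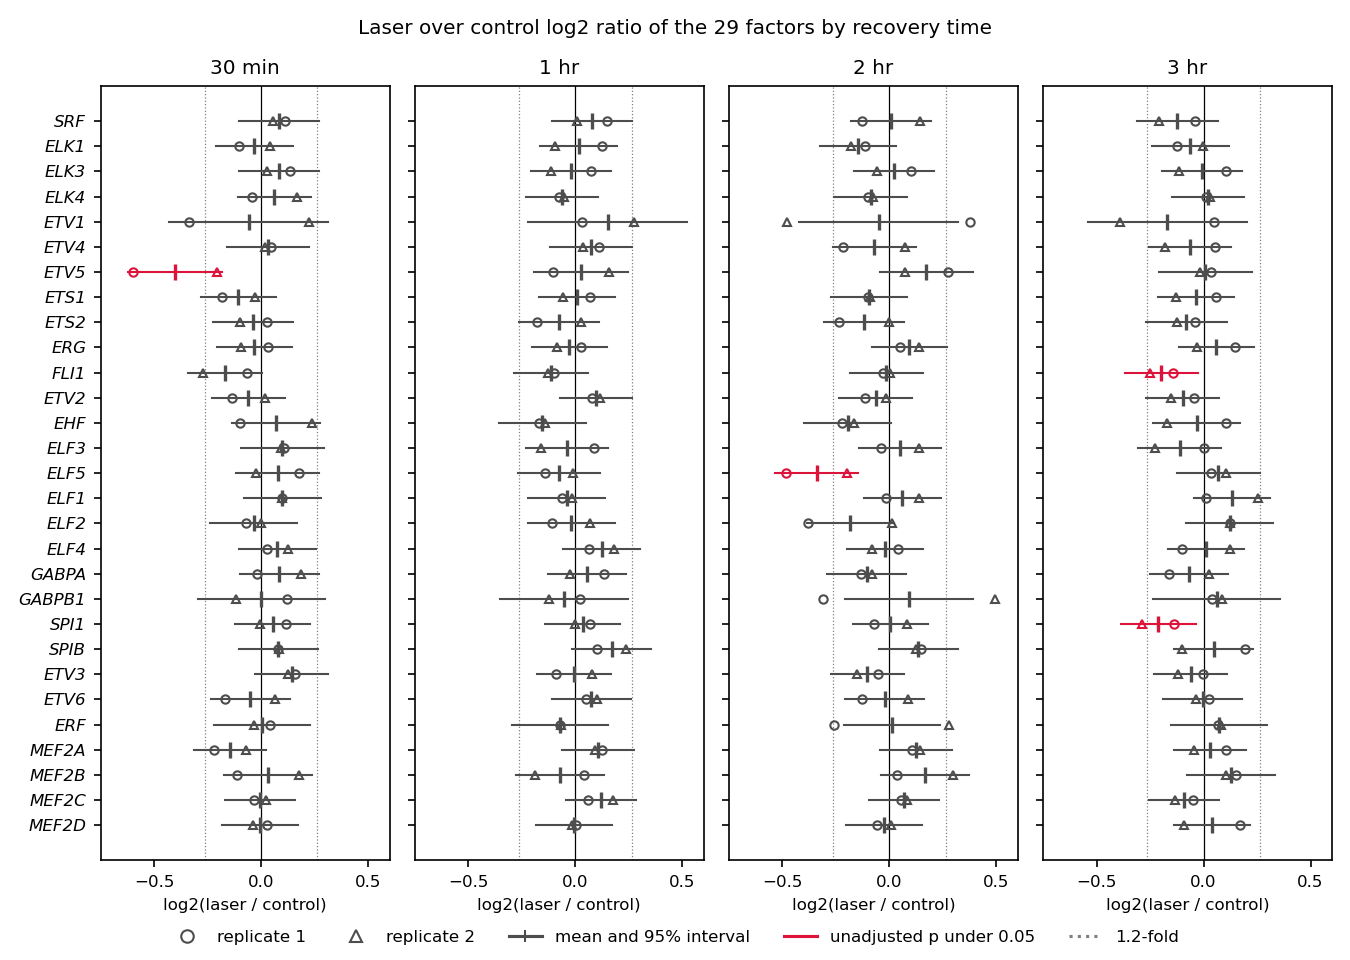
Log2 ratio of laser over control signal for each of the 29 factors, 1 panel per time point, with biological replicate 1 as a circle, replicate 2 as a triangle, and the mean with its 95% interval as a tick on a line. Red marks an unadjusted p under 0.05 and the dotted lines mark 1.2-fold. Of the 116 means, 114 lie under 1.2-fold, and *ETV5* at 30 min (−0.40) and *ELF5* at 2 hrs (−0.34) lie beyond it.

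The dye orientations gave opposite signs for most members, and the replicates shared a sign in 13 to 15 of 29. Both replicates had the same sign for 13, 15, 15 and 15 of the 29 members over the time points in order, a share of 44.8, 51.7, 51.7 and 51.7% against 56.5, 51.8, 52.4 and 50.4% of all genes. The ratio with the laser RNA in Cy3 had the opposite sign to that with the laser RNA in Cy5 for 21, 18, 25 and 16 members (72.4, 62.1, 86.2 and 55.2%), against 64, 78, 71.8 and 73.4% of all genes. Across the 29 members the ratios of both orientations were negatively correlated in all 8 replicates, with r between −0.81 and −0.39. Without *ETV1* r lay between −0.64 and −0.01, and across all genes between −0.64 and −0.24. These coefficients are descriptions across genes that share their arrays. At 30 min 1 member, *ETV5*, had the same sign on at least 80% of arrays, and at 2 hrs 1 member, *EHF*, did so. The share of all genes over the time points was 1.06, 0.599, 4.06 and 2.26%.

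**Figure D3:**
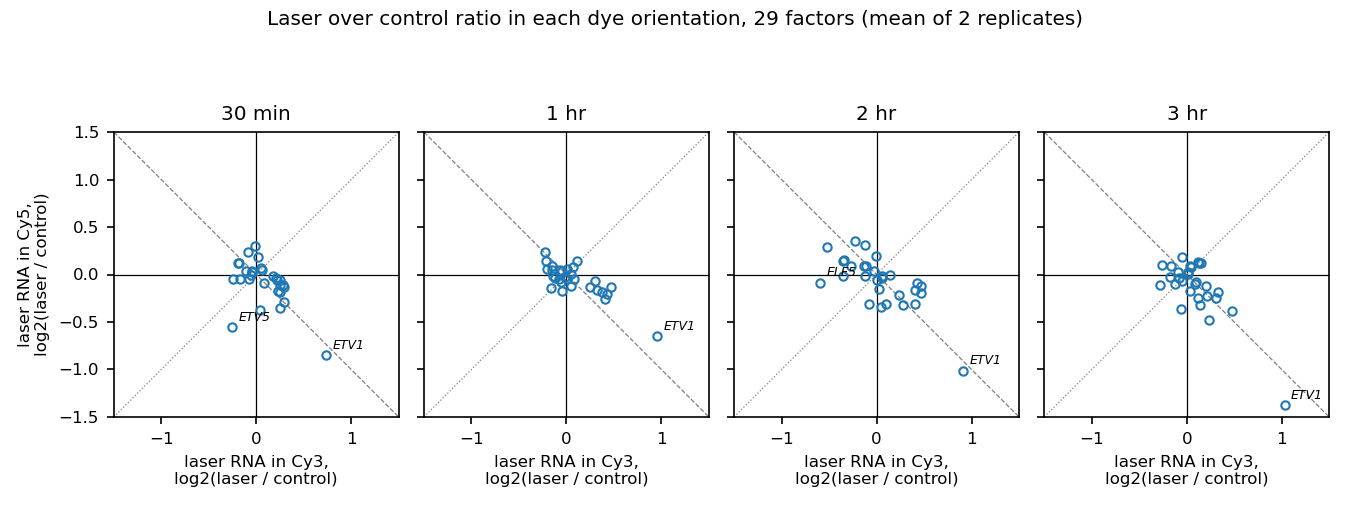
Log2 ratio of laser over control where Cy3 carried the laser RNA (horizontal) and where Cy5 did (vertical) for the 29 factors, mean of both replicates, at each time point. A response that does not depend on the dye would lie on the dotted diagonal, and an effect of the dye alone on the dashed one. *ETV1* lies furthest along the dashed line at each time point, from 0.74 and −0.85 at 30 min to 1.03 and −1.37 at 3 hrs.

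More members passed the test for an effect of the dye than for an effect of the lesion. The dye test pools all time points, while each lesion ratio rests on 2 replicates. These counts thus do not compare the size of both effects. The effect of the dye was estimated for each gene from 16 means, 1 for each orientation of each replicate, as Cy5 over Cy3 signal with equal weight for both orientations. In limma 9 members (31%) had a dye effect with an adjusted p under 0.05, close to the 495 of 1503 genes (32.9%). Of the 9 members, 7 were brighter in Cy3 and 2 in Cy5, beside 260 (17.3%) and 235 (15.6%) of the 1503 genes. For 3 members, *ETV1*, *SPIB* and *ETV6*, the effect was also over 1.2-fold, as for 159 genes (10.6%). In 13 members the dye effect was larger than the largest laser ratio at any time point, a count not made for all genes. The median absolute dye effect was 0.113 for the members and 0.107 for all genes.

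*ETV1* had the largest dye effect of the set, −0.94 on the log2 scale (SE 0.074, adjusted p 1.43e-07), a 1.92-fold brighter signal in Cy3. Its 16 orientation means, as Cy5 over Cy3, ran from −1.48 through a median of −0.79 to −0.39, all below 0. *SPIB*, a B lymphoid factor, stood at −0.30 (SE 0.052) and *ETV6*, a repressor needed in blood formation, at −0.29 (SE 0.047), each with 16 of 16 means below 0. *SRF* stood at −0.26 (SE 0.053, adjusted p 0.0019), again with all 16 below 0. In the other direction, *ETS2* stood at 0.20 (SE 0.056, 1 of 16 means below 0), *ETS1* at 0.17 (SE 0.056, 3 of 16) and *ELF1* at 0.13 (SE 0.056, 4 of 16). The adjusted p of *ELF1* was 0.079, short of the threshold. *MEF2A* (−0.20), *GABPA* (−0.16) and *ERF* (−0.15) were the remaining members past it, each with 12 of 16 means below 0. Over 15 settings, 7 ways of processing and 8 omissions of a replicate, *ETV1*, *SPIB*, *ETV6*, *SRF* and *ETS2* kept an adjusted p under 0.05 in all 15, and all 9 kept their sign. *GABPA* passed in 11 of the 15 settings, *ETS1* in 9, *ERF* in 8 and *MEF2A* in 7, where its effect went down to −0.017.

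**Figure D4:**
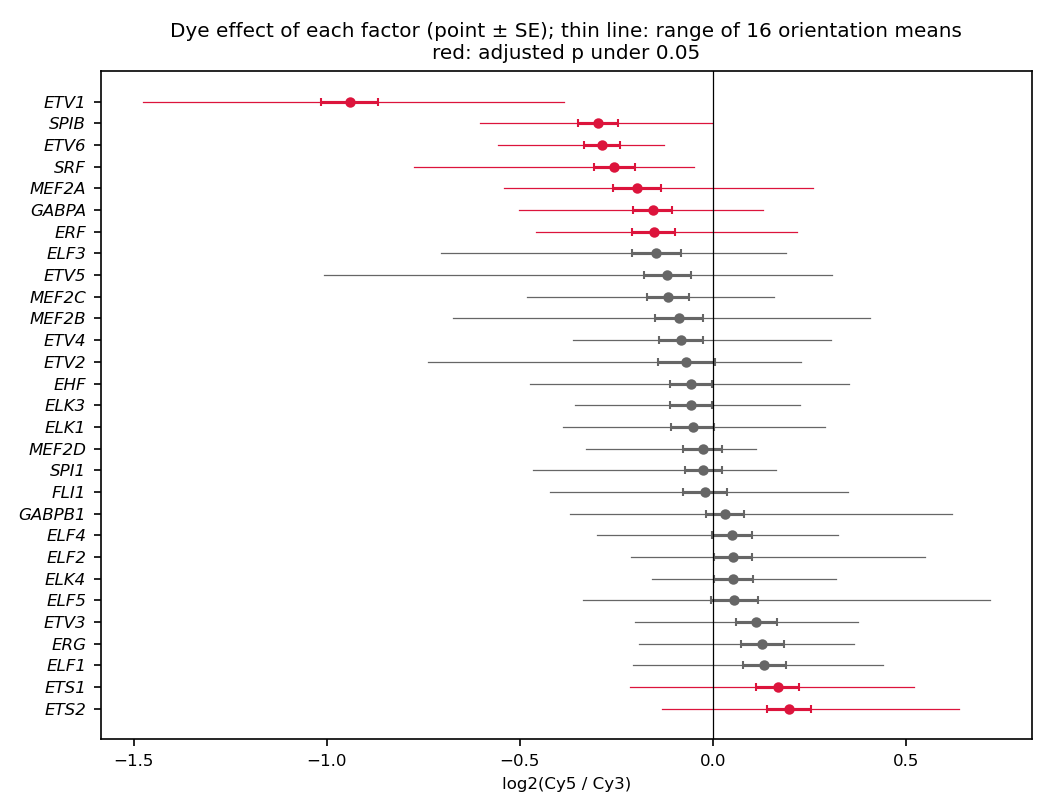
Dye effect (log2 of Cy5 over Cy3 signal) of each of the 29 factors, with the fitted effect as a point, its SE as a thick bar and the range of the 16 means of replicate and orientation as a thin line. Red marks an adjusted p under 0.05. *ETV1* stands apart at −0.94 with 16 of 16 means below 0, and *ETS2*, at 0.20, is the highest.

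*SRF* itself showed no change that passed the test. Its mean signal over the time points was 2059, 3037, 2143 and 2025 units, and it was above the highest control on 8 of 77 arrays. The replicate log2 ratios were 0.11 with 0.05 at 30 min, 0.15 with 0.01 at 1 hr, −0.13 with 0.14 at 2 hrs, and −0.04 with −0.21 at 3 hrs. The pair shared a sign at 3 of the 4 time points, above 0 at the early ones and below it at 3 hrs. With the laser RNA in Cy3 the mean ratio was 0.28, 0.32, 0.23 and 0.23 over the time points. With the laser RNA in Cy5 it was −0.12, −0.17, −0.22 and −0.48, so that the sign followed the dye at every time point. The mean over both was 0.08 (SE 0.087), 0.08, 0.01 and −0.12.

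The ternary complex factors bind DNA beside *SRF* and carry MAP kinase signals to it. *ELK1* had a signal above 1000 units on 72 of 77 arrays, and log2 ratios of −0.03, 0.02, −0.15 and −0.06 over the 4 time points (SE 0.083). The replicates at 2 hrs were −0.12 and −0.18, and by orientation 0.05 where Cy3 carried the laser RNA and −0.34 where Cy5 did. Both replicates were thus below 0 while the orientations disagreed, and the limma p was 0.101. *ELK4* had ratios of 0.06, −0.06, −0.09 and 0.02 (SE 0.079). Its replicates at 2 hrs were −0.10 and −0.08, with orientations of −0.27 in Cy3 and 0.09 in Cy5. *ELK3*, which represses in the absence of MAP kinase signals, stayed between −0.02 and 0.08.

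The PEA3 group held the member most often above the control spots, *ETV1*, and one of the members past the threshold, *ETV5*. The mean signal of *ETV1* was 25592 units at 30 min, where single arrays ran from 3161 units to the scanner's limit, and 8384, 9586 and 8376 at the later time points. Relative to the array median, the control channel of the replicates stood at 3.13 with 5.28 on the log2 scale at 30 min, 2.50 with 1.76 at 1 hr, 2.72 with 3.49 at 2 hrs, and 3.05 with 3.99 at 3 hrs. In both replicates this level was highest at 30 min and lowest at 1 hr, the reverse of the order of the median array signals, and the part of the array signal in it was not tested. On 7 arrays of replicate 2 at 30 min 14 *ETV1* spots were saturated.

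The *ETV1* ratios were −0.06, 0.15, −0.05 and −0.17 (SE 0.17, the widest of the set). The replicates were −0.34 and 0.22, 0.03 and 0.27, 0.38 and −0.48, and 0.05 and −0.39, so that their sign differed at 3 of the 4 time points. With the laser RNA in Cy3 the ratios were 0.74, 0.96, 0.91 and 1.03. With the laser RNA in Cy5 they were −0.85, −0.65, −1.01 and −1.37, each orientation showing a change in the opposite direction at every time point. Without the 7 saturated arrays the mean signal at 30 min was 13253 and the ratio −0.10.

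*ETV5* was lower in the laser SE at 30 min. On the 25 arrays the log2 ratio ran from −3.08 through a median of −0.17 to 0.77, with 20 of 25 below 0. The replicates were −0.60 and −0.21, and the orientations −0.25 (laser RNA in Cy3) against −0.56 (in Cy5). Both replicates and both orientations lay below 0, and the mean was −0.40 (SE 0.10, 95% interval −0.62 to −0.19, 1.32-fold lower, limma p 0.00151, adjusted p 0.212).

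Much of that value came from the 2 arrays with most genes over 4-fold, on which *ETV5* stood at −3.08 and −3.05. As deposited, before background correction and normalisation, the same 2 arrays gave −1.43 and −2.15. The other 5 of the 7 arrays of replicate 1 with the laser RNA in Cy5 lay between −0.67 and 0.23. Without the 2 arrays the replicates were −0.19 and −0.21, and the mean −0.20 (limma p 0.0338, adjusted p 0.637), under 1.2-fold. With the median over arrays in place of the mean it was −0.20 as well (p 0.0501). The count of genes past the threshold at 30 min moved likewise, from 52 to 23 (1.53%) without these arrays. By day in the file header, *ETV5* stood at −0.86, 0.09 and −0.53 on days 8, 9 and 11 for replicate 1, and at −0.28 and −0.06 on days 10 and 11 for replicate 2. With replicate 2 alone the mean was −0.21. With no array turned, where a laser effect cancels between the orientations, the mean of Cy5 over Cy3 was −0.15 (limma p 0.202).

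At the later time points *ETV5* stood at 0.03, 0.17 and 0.01, with replicates of −0.11 with 0.16, 0.27 with 0.07, and 0.03 with −0.02. *ETV4*, the third gene of the group, was present in 4 spots and stood at 0.03, 0.07, −0.07 and −0.06 (SE 0.090). Its 2 pairs of spots gave 0.03 and 0.03 at 30 min and −0.05 and −0.09 at 2 hrs, less far apart than the replicates of the gene at 2 hrs (−0.22 and 0.07).

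**Figure D5:**
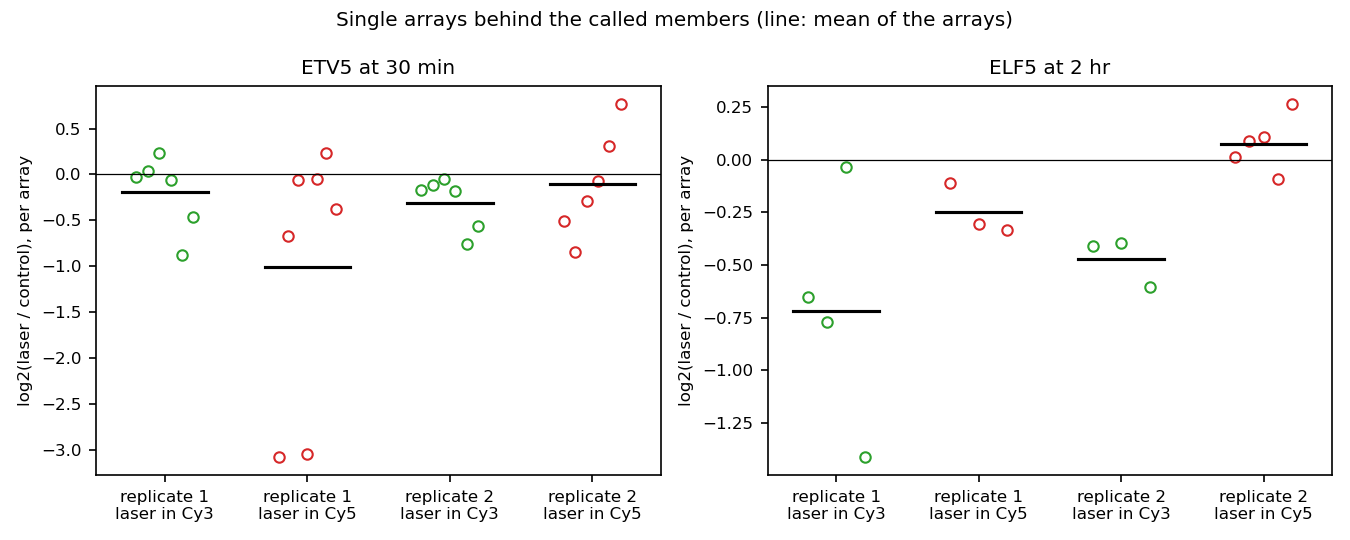
Log2 ratio of laser over control on single arrays for *ETV5* at 30 min and *ELF5* at 2 hrs, by replicate and by the dye of the laser RNA, with the mean as a line. For *ETV5* 2 arrays at −3.08 and −3.05 stand apart from the other 5 of their replicate and orientation, which lie between −0.67 and 0.23.

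*ELF5*, an ETS factor of secretory and other glandular epithelia, was lower in the laser SE at 2 hrs. Over 15 arrays its log2 ratio ran from −1.41 through a median of −0.31 to 0.27, with 11 of 15 below 0. The replicates were −0.48 and −0.20, and the mean −0.34 (SE 0.089, 95% interval −0.53 to −0.15, 1.27-fold lower, limma p 0.00213, adjusted p 0.209). The orientations were −0.59 with the laser RNA in Cy3, where all 7 arrays lay below 0, and −0.09 in Cy5. There the arrays of replicate 1 lay below 0 and 4 of the 5 arrays of replicate 2 above it.

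Within the days that held 2 hr arrays in both orientations, *ELF5* was −0.52 on day 3 and −0.41 on day 5 for replicate 1, and −0.20 on day 4 and −0.18 on day 5 for replicate 2. The 1 hr arrays of those days gave 0.07 on day 3 (replicate 2), and −0.30 and −0.0043 on day 5 (replicates 1 and 2). On day 5 the 2 hr value of replicate 1 thus lay below both 1 hr values, and that of replicate 2 lay between them. Replicates of different time points were not taken as pairs. With replicate 2 alone the 2 hr value was −0.20. With no array turned the mean was 0.25 (limma p 0.0144), a Cy5 over Cy3 value in which a laser effect cancels between the orientations. The laser ratio was −0.24 with plain background subtraction and −0.22 with median centring. It was −0.22 with no background correction and −0.19 in the centred deposited ratios, all under 1.2-fold. At 2 hrs the *ELF5* signal was above the highest control on 1 of 15 arrays and above the median control on 7. At 30 min, 1 hr and 3 hrs its ratios were 0.08, −0.08 and 0.07. On the same 2 hr arrays, 4 hair cell markers on the array had a median ratio of −0.09, from −0.35 to −0.04. That of 10 supporting and prosensory cell markers was −0.07, from −0.31 to 0.17. The part of either list in the *ELF5* value was not tested.

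The other epithelial members of this ETS branch, *EHF* and *ELF3*, were above the highest control on 28 and 64 arrays and did not pass the test. *EHF* had 13 of 15 arrays below 0 at 2 hrs, with replicates of −0.22 and −0.17, orientations of −0.08 and −0.31, and a mean of −0.19 (SE 0.094, limma p 0.060). *ELF3* had a mean signal of 11072, 11387, 4742 and 6396 units over the time points and ratios of 0.10, −0.04, 0.05 and −0.11 (SE 0.090). The more widely expressed *ELF1*, *ELF2* and *ELF4* lay between −0.18 and 0.13. For *ELF1*, which had one of the 3 largest dye effects towards Cy5, the orientations at 2 hrs were −0.23 and 0.35.

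Among the ETS factors of endothelial and blood lineages, none passed the fold threshold. *FLI1* stood at −0.20 at 3 hrs (SE 0.080, limma p 0.0274, adjusted p 1.00), with replicates of −0.14 and −0.25, orientations of −0.28 in Cy3 and −0.11 in Cy5, and 13 of 20 arrays below 0. Both replicates and orientations shared the sign, at a signal that was above the median control on 4 of 20 arrays. *SPI1*, the myeloid factor PU.1, stood at −0.21 at 3 hrs (SE 0.081, limma p 0.0207, adjusted p 0.987), with replicates of −0.14 and −0.29, orientations of −0.06 and −0.36, and 13 of 20 below 0.

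Each of these was at 1000 units or more on fewer than 80% of the 3 hr arrays, and the value of *FLI1* reversed under other scalings. At that time point the 6 blood and immune markers on the array, *SPI1* and *SPIB* included, had a median ratio of −0.03 (from −0.21 to 0.05). The 4 endothelium markers, of which 3 are members, had a median of −0.04 (from −0.20 to 0.06). None of the markers of either list was above the highest control on at least 80% of arrays, and their part in the results was not tested. *SPIB* stood at 0.08, 0.17, 0.14 and 0.05, with orientations of 0.22 and −0.05, 0.47 and −0.13, 0.46 and −0.19, and 0.48 and −0.38, following the dye at each time point. *ERG* and *ETV2*, which act in endothelial development, lay between −0.10 and 0.10.

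*ETS1* and *ETS2*, effectors of RAS and MAP kinase signalling, lay between −0.12 and 0.01. *ETS2* had orientations of −0.53 and 0.29 at 2 hrs and −0.26 and 0.10 at 3 hrs, its sign following the dye opposite to that of *ETV1*. *ETS1* had orientations of −0.35 and 0.16 at 2 hrs and −0.16 and 0.09 at 3 hrs. *GABPA*, a regulator of mitochondrial and ribosomal genes, stayed between −0.11 and 0.09. Its partner *GABPB1* had the widest gap between replicates at 2 hrs apart from *ETV1*, −0.31 and 0.50. Of the repressors, *ETV6* lay between −0.05 and 0.08, *ERF* between −0.07 and 0.07, and *ETV3* between −0.10 and 0.14.

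The 4 MEF2 genes did not pass the test at any time point. *MEF2A* stood at −0.15, 0.11, 0.12 and 0.03 (SE 0.078), with replicates of −0.22 with −0.07 at 30 min, 0.12 with 0.09 at 1 hr, 0.10 with 0.14 at 2 hrs, and 0.10 with −0.04 at 3 hrs. Its replicates shared a sign at the first 3 time points, below 0 and then above. The orientations also shared it at 30 min, −0.24 and −0.05, but not at 1 hr, 0.42 and −0.21, nor at 2 hrs, 0.41 and −0.16.

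*MEF2B* had a mean signal of 5335, 8331, 5300 and 3877 units and ratios of 0.03, −0.07, 0.17 and 0.13 (SE 0.096). At 3 hrs 14 of its 20 arrays lay above 0, with replicates of 0.15 and 0.10 and orientations of 0.13 in Cy3 and 0.12 in Cy5, and a limma p of 0.206. *MEF2C* stood at −0.01, 0.12, 0.07 and −0.09 (SE 0.076) and *MEF2D* lay between −0.03 and 0.04 (SE 0.082). None of these values had a limma p under 0.05.

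The design also asks whether a ratio differed between time points. In limma's moderated F-test over the 4 time points, *ETV5* (p 0.00846) and *ELF5* (p 0.0185) were the members with an unadjusted p under 0.05, as were 123 of 1503 genes (8.18%). No gene passed an adjusted p of 0.05, and both members had an adjusted p of 0.567. The *ETV5* ratio was higher than at 30 min by 0.43 at 1 hr, by 0.58 at 2 hrs and by 0.41 at 3 hrs, which rests on the same 30 min arrays. Without the 2 arrays with most genes over 4-fold these differences were 0.22, 0.37 and 0.21, and the *ETV5* p was 0.0522. With the median over arrays it was 0.337. With the header day as a random block it was 0.0578, and *ELF5*, *EHF* and *SPI1* were then the 3 members with a p under 0.05 (120 genes, 7.98%). The *ELF5* ratio was lower at 2 hrs than at 30 min by a difference of −0.42, and higher at 3 hrs than at 2 hrs by 0.41. The lowest adjusted p of these differences was 0.160.

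Immediate early genes, a class that holds targets of *SRF* and the ternary complex factors such as *FOS* and *EGR1*, were looked at beside the factors themselves. Whether each listed gene depends on these factors in this tissue was not tested. Of 23 immediate early genes listed, 20 were on the array and tested. At an unadjusted limma p under 0.05, 1 was higher at 30 min, 1 was higher at 1 hr, 2 were higher and 2 lower at 2 hrs, and none passed at 3 hrs. These are 1, 1, 4 and 0 of 20 genes, beside 8.92, 2.66, 10.9 and 3.79% of all genes. *EGR1* stood at 0.70 at 30 min (SE 0.13, p 9.18e-05, adjusted p 0.069), with replicates of 0.33 and 1.06. Its orientations were 1.54 (laser RNA in Cy3) against −0.14 (in Cy5), so the orientations did not share a sign. *JUNB* stood at 0.32 at 2 hrs (p 0.0063, adjusted p 0.239) with replicates of 0.28 and 0.36 and orientations of 0.79 and −0.15. The others were *JUN* at 1 hr (0.19) and *MAFF* at 2 hrs (0.22), and, lower at 2 hrs, *EGR2* (−0.23) and *KLF4* (−0.22). *FOS* lay between −0.04 and 0.04 at all time points. For the cochlea at 30 min the paper lists a higher *FOS* after the laser on its arrays, and a larger rise by qPCR on new samples. Its cochlear laser arrays are of the series used here, and the main fit over all arrays did not give that rise. The paper's selection of hybridisations and its processing differ from those used here, and their part in this was not tested. Small array ratios here thus do not show that the *FOS* transcript was unchanged. The median of the 20 genes was −0.03, 0.0026, −0.0017 and 0.03 over the time points.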

How the data were processed

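The authors deposited, for each of 77 arrays, the mean intensity and the local background intensity of every spot in Cy3 and Cy5 as read by the scanner. They also deposited a table of log2 ratios of laser over control. It equals the ratio of the uncorrected intensities, turned by the dye digit of the title, to within 5.77e-15. The table is not centred, and was used as an alternative only. The methods name LOWESS normalisation and a filter set by control spots. The selection of hybridisations used for the published tests is not given in the sources used here, and all arrays were kept.

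From the intensities, limma 3.58.1 in R 4.3.3 was used for normexp correction (offset 50) and a loess fit within each array (span 0.3), in which 27 control names had weight 0. Duplicate spots were averaged, and each ratio was turned to laser over control by the dye digit of the title. Arrays were averaged within an orientation, orientations within a replicate, and the 8 replicates were fitted by time point with lmFit and eBayes over the 1503 genes whose mean signal reached 1000 at 1 time point or more. Spread between replicates was shared over all groups and drawn by eBayes towards that of all genes. Of the 13.3 total degrees of freedom, 9.28 came from the spread of all genes. P-values were adjusted by Benjamini and Hochberg over all genes tested. Ratios are on the log2 scale. A call is an unadjusted p under 0.05 with a change over 1.2-fold. For the effect of the dye, 16 means of replicate and orientation were fitted with a laser term for each replicate. Signal over background had a median of 3.35 (2.12 to 31.7). Arrays carry no read depth, and precision is limited by the 2 replicates of a time point. The median SD between arrays of one replicate and orientation was 0.35 for the members, and their median residual SD between replicates 0.115.

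Same-numbered replicates of different time points did not deviate together (correlation of deviations −0.25 to 0.17), so no pairing was assumed. The fit was tested on simulated data. Alternatives were no background correction or plain subtraction, median centring, between-array scaling, no signal filter, the deposited ratios, each orientation alone, no array turned, equal array weights, the methods' test, a dye term, the header day as a random block, other fold thresholds, the replicate block, and leaving out each replicate.

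Members were named where an unadjusted p was under 0.05, where the study's pathway tables list them (*ELK1*, *ELK4*, *ETV1*), where they lack an ETS domain, or where the dye effect was among the 3 largest in either direction. *EHF*, *ELF3* and *GABPB1* at single time points were singled out after their values were seen. The members, lists and tests were chosen with earlier results of these data known. Probe sequences were not analysed here. One result on a gene outside the set is not reported here.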

Additional observations from a re-analysis of the deposited data

Results flagged for a closer look

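The laser over control ratio of *ETV5* differed between time points in a moderated F-test (limma p 0.00846, adjusted p 0.567), from −0.40 at 30 min to 0.17 at 2 hrs. Leaving out the 2 arrays of 30 min with most genes over 4-fold took the 30 min value to −0.20 and the p of the F-test to 0.0522, short of the threshold. With the header day as a random block the F-test p was 0.0578, and with the median over arrays it was 0.337. The ratio of *ELF5* differed between time points in the same test (limma p 0.0185, adjusted p 0.567), from 0.08 at 30 min to −0.34 at 2 hrs, with 1 orientation carrying most of the 2 hr value (−0.59 against −0.09). Of all genes, 123 of 1503 (8.18%) passed an unadjusted p of 0.05 in this test.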

How the results depend on the processing

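The 2 members past the threshold became 1 without background correction (45 of 1503 genes), 7 with the deposited ratios uncentred (391), and 1 with them centred (94). They became 17 with the laser RNA in Cy3 alone (806 genes), 15 in Cy5 alone (653), 4 without a fold threshold (344) and 0 at 1.5-fold. With no array turned, here and below, the calls are on Cy5 over Cy3 signal, in which a laser effect cancels. There were 10 of these (657). With plain subtraction *MEF2A* (188 genes), and with median centring *MEF2B* (157), took the place of *ELF5* among 2. Over all genes the main count was 125, and 2 at 1.5-fold. In the deposited table uncentred the median of all genes stood at 0.16, −0.04, −0.18 and −0.09 over the time points. Leaving out 1 replicate gave 2 to 5 members (4 without replicate 2 and 5 without replicate 1 at 2 hrs, the latter without *ELF5*, and 2 without replicate 1 at 30 min, *ELF5* and *FLI1*). The adjusted threshold, passed by no member, was passed by 6 in Cy3 alone (208 of 1503 genes), 1 in Cy5 alone (120) and 6 with no array turned (404), and by 0 with any replicate left out.

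The 2 members differing between time points became 1 with median centring, 4 with the deposited ratios, 1 with them centred, 0 in Cy5 alone, 1 with a dye term and, with the header day as a block, 3 without *ETV5*, and 1 to 3 with a replicate left out (1 without replicate 1 at 30 min). With the replicate block they were 2, and the block changed no other call. Of all genes, 8.18% differed between time points at an unadjusted p under 0.05 in the main fit and 9.65% with median centring. The share was 12.7% with the deposited ratios, 11.6% with them centred and 6.92% in Cy5 alone. It was 3.73% with a dye term, 7.98% with the header day as a block and 7.05% with the replicate block. The 9 members with a dye effect became 5 with plain subtraction, 17 with median centring and 14 with the centred deposited ratios, and 6 to 9 with a replicate left out. The 9 members detectable throughout became 4 at 1200 units, 20 at 50% of the arrays, 2 by the highest control, and 7 to 10 with a replicate left out. Counts over all genes are not given here for the dye settings, the detection settings or the omissions of a replicate. Those counts of members thus cannot show a trait particular to the set.

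*FLI1* at 3 hrs reversed to 0.0135 with median centring and to 0.00532 with the centred deposited ratios. With no array turned *FLI1* at 3 hrs stood at 0.086 and *ELF5* at 2 hrs at 0.25. These are Cy5 over Cy3 values and cannot show a reversed laser ratio. *ETV5* at 30 min was −0.21 without replicate 1 (p 0.126) and *ELF5* at 2 hrs −0.20 without replicate 1 (p 0.0991). Chosen after seeing the data were the median over arrays and the omission of 2 arrays, each with 1 member past the threshold and 1 differing between time points, the control spot criteria, and the block for calls. Of all genes, 78 (5.19%) passed the threshold with the median over arrays and 101 (6.72%) without the 2 arrays. Those differing between time points were 72 (4.79%) and 125 (8.32%). The causes were not tested. The methods' test gives no value between time points.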

Other observations

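Cofactors and partners of these factors were also on the array, 26 of the 38 listed. Of these 26, 1 was higher at 1 hr, 1 was higher and 3 were lower at 2 hrs, and 1 was lower at 3 hrs, at an unadjusted limma p under 0.05. *RUNX2*, a partner of *ETS1* on some promoters, was higher at 1 hr (0.24). *NRF1*, a regulator of nuclear genes for mitochondria, was lower at 2 hrs (−0.37), with replicates of −0.61 and −0.12, and *PAX5*, a partner of ETS factors in B cells, stood at −0.39 with orientations of 0.01 and −0.79. *ID1*, which inhibits basic helix-loop-helix factors, was lower too (−0.23). At 3 hrs *MYOD1*, a muscle factor that works with MEF2, was lower (−0.18). None of these passed an adjusted p of 0.05, and 10.9% of all genes had an unadjusted p under 0.05 at 2 hrs. No other list, that is supporting and prosensory cell, neuron, mesenchyme and muscle markers, had more than 1 gene in either direction at such a p at any time point, out of 10, 5, 4 and 4 genes tested.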
